A study of Rattus norvegicus with 2 samples.

Results

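The genes described here encode the proteins of the 2 ribosomes of a rat cell: the cytosolic ribosome, which translates messages from the nucleus, and the mitochondrial ribosome, which translates the few messages of the mitochondrial genome. They were chosen by symbol alone, as genes named Rpl or Rps with a number, Rplp0 to Rplp2 or Rpsa for the cytosolic ribosome, and Mrpl or Mrps with a number for the mitochondrial ribosome. A gene was taken where a probe set of the array carried exactly 1 gene symbol, and its brightest such probe set gave its value. This gave 113 of the 10411 genes measured, 44 of them cytosolic (30 of the large and 14 of the small subunit) and 69 mitochondrial (45 large and 24 small).

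RNA came from rat sympathetic neurons, the noradrenergic neurons that supply the heart and vessels, on 2 Affymetrix Rat 230A arrays, 1 per condition. One array held neurons taken from co-culture with myocytes, a muscle target of these neurons, and the other held neurons cultured alone; the labels give no strain, age or drug treatment. Per the labels' protocol, neurons were lifted with EDTA from dishes that held myocytes or other flat cells, so each RNA can hold some RNA of those cells. The free-text description is the same for both samples and speaks of neurons grown alone, so the co-culture array was identified by its sample title and by its named source. The series asked which genes accompany the halt of growth that follows contact with the target. With 1 array per condition there was no replicate error and no test, and each difference compares 2 arrays, not 2 conditions.

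Both ribosomes consist of a small subunit, which reads the message, and a large subunit, which joins amino acids. Messages of cytosolic ribosomal proteins begin with a C followed by a run of pyrimidines, the TOP motif, through which the kinase mTOR controls their translation as a group. Mitochondrial ribosomal proteins are encoded in the nucleus, made on cytosolic ribosomes and imported, and many have a counterpart in bacteria. The mitochondrial ribosome makes core subunits of the respiratory chain and ATP synthase.

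All values are deposited intensities, and a ratio is the log2 of co-culture over alone. Intensities of different probe sets depend on their probes, so levels were compared between arrays and not between genes, except to sort genes into signal classes. A gene passed the filter where its intensity reached its array's median in at least 1 array, 175 in co-culture and 186 in neurons alone. By that filter 42 of 44 cytosolic and 68 of 69 mitochondrial genes were kept, with 6368 genes in all. The genes that did not pass were Rpl3l, a copy of Rpl3 used in striated muscle (14.4 in co-culture and 22.4 alone, both under the floor of 39.6), Rpl30 (39.6 in co-culture and 55.6 alone) and Mrps31 (148 in co-culture and 91.3 alone). Rpl3l was therefore near background on both arrays, and no fold is given for it.

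The fibroblast and smooth muscle markers on the arrays were bright in both, with a summed intensity of 60469 in co-culture and 55612 alone over 16 genes, 12 of them higher in co-culture. For the marker counts here, 47.3% of all genes that passed the filter were higher. Of genes outside both ribosomes with a mean intensity of 4000 or more, a class that includes Col1a1 and Vim, 72.8% were higher. Log2 ratios of the fibroblast and smooth muscle markers ran from 1.96 for the matrix gene Mgp (1603 in co-culture and 412 alone) to -0.47 for the smooth muscle actin gene Acta2 (2913 in co-culture and 4040 alone). Tagln, Myl9 and Thy1 were also lower, all named after their values were seen. All 14 sympathetic neuron markers were lower in co-culture, with sums of 32079 in co-culture and 39645 alone and a median log2 ratio of -0.34 (Th, 4575 in co-culture and 6175 alone). Of these, Chga (131 in co-culture and 206 alone) passed only through the array of neurons alone. Of 14 cardiac markers on the array, 4 passed the filter, 3 of them higher in co-culture. Nppa (201 in co-culture and 178 alone) and Nppb (309 in co-culture and 180 alone) passed only through the co-culture array, where both were higher. The others that passed were Tnnt2 (0.48) and Pln (-0.02). All 14 cardiac markers summed to 2117 in co-culture and 1645 alone. For glia, 8 of 9 markers passed, 5 of them higher, with sums of 7796 in co-culture and 7779 alone. Of these 5, Erbb3 (231 in co-culture and 160 alone) and Gfap (182 in co-culture and 169 alone) passed only through the co-culture array. All 17 cell cycle genes passed, 12 of them higher, with sums of 16319 in co-culture and 15443 alone. Over the 6 scalings described below, 13 or 14 neuron markers were lower and 9 to 12 fibroblast and smooth muscle markers higher. The cell cycle genes did not keep a direction, with 16 of 17 higher under median scaling and 6 with the spiked controls, nor did the median of the glial list, which was below 0 with the spiked controls. No marker on these lists had an intensity of 0. In RNA from many cells, fewer cells of a type and less RNA per cell cannot be told apart, and the part of these marker shifts in the ribosomal values was not tested.

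Most genes of both ribosomes had a higher intensity in neurons from co-culture, by small amounts. Of the cytosolic genes that passed, 41 of 42 were higher, with a median log2 ratio of 0.20 and an SD of 0.13 over genes. Of the mitochondrial genes, 52 of 68 were higher and 16 lower, with a median of 0.16 and an SD of 0.25 over genes. Over all 6368 genes the median was -0.01 and 47.3% lay above 0. The ratios ran from -0.26 to 0.46 in the cytosolic and from -0.84 to 0.65 in the mitochondrial group. Other genes of like signal differed in spread in the same way, with an SD of 0.16 at mean intensities of 4000 or more and 0.28 between 200 and 2000. The filter took 4 mitochondrial genes (Mrpl40, Mrpl44, Mrps28 and Mrps9) only through the co-culture array, the one where each was higher. Without them 48 of 64 mitochondrial genes were higher, with a median of 0.13, a setting chosen after seeing the data.

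At a log2 ratio of 0.32 or more, which is 25% more intensity, lay 7 cytosolic genes, and 0 lay at -0.32 or less. By as much, 12 mitochondrial genes were higher and 2 lower, or 10 and 2 without the 4 that passed only in co-culture. Of all genes, 8.54% were higher and 12.8% lower by as much. At 1.5-fold, 0 cytosolic genes lay in either direction, and 1 mitochondrial gene was higher and 2 were lower, against 1.93% of all genes higher and 3.3% lower. No gene of either ribosome reached 2-fold, which 0.314% of all genes did upward and 0.628% downward. A single probe set is imprecise at this scale: where a gene had several probe sets, the log2 ratio of 1 probe set had an SD of 0.18 at intensities of 2000 or more (60 genes) and 0.28 between 200 and 2000 (673 genes). Many single differences of the ribosomal genes were therefore no larger than the spread between probe sets of the same gene.

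The 2 groups differ in signal. Cytosolic genes made up 36 of the 139 genes with a mean intensity of 4000 or more (25.9%), and no mitochondrial gene was among them. The other 103 genes that bright had a median log2 ratio of 0.08, and 72.8% of them were above 0, whereas all 36 cytosolic genes were, with a median of 0.21. At 0.32 or more lay 6 of those 36 cytosolic genes and 1.94% of the other bright genes. Between 200 and 2000, the band that holds most mitochondrial genes, the other 5259 genes had a median of -0.03, and 45% of them were above 0. The 63 mitochondrial genes in that band had a median of 0.14, with 48 higher and 10 at 0.32 or more, which 7.45% of the other genes in the band reached. Within each group the ratio was only loosely tied to signal, with a Spearman correlation over genes of one array pair of -0.21 (n = 42) for cytosolic and -0.12 (n = 68) for mitochondrial genes. Pearson's r was 0.22 and -0.03, so the cytosolic relation had no settled sign.

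**Figure D1:**
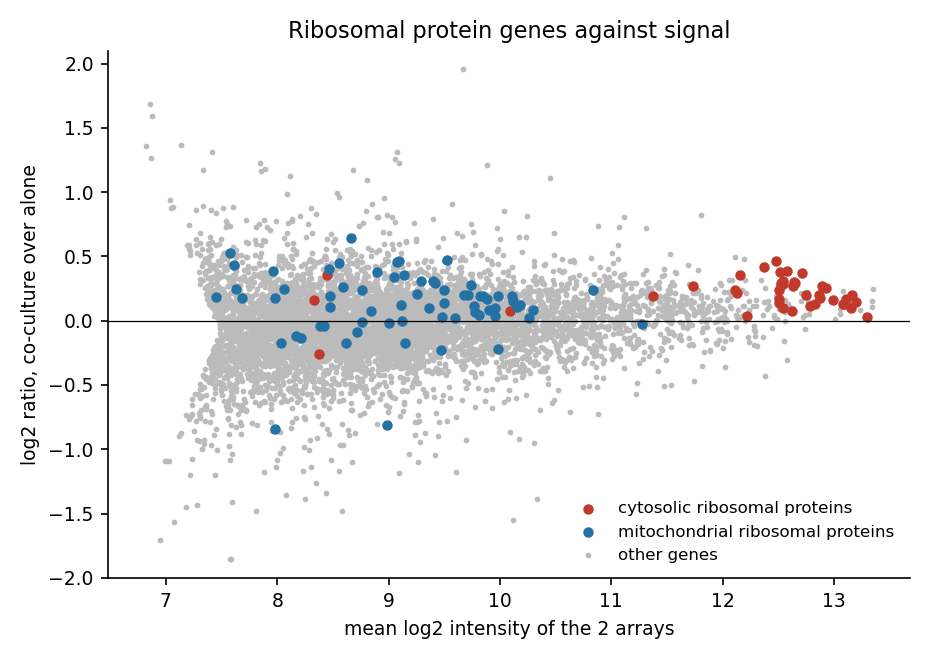
Each point is a gene that passed the filter, with its mean log2 intensity of the 2 arrays on the x axis and its log2 ratio of co-culture over alone on the y axis. The y axis is cut, so the highest ratio of a gene that passed, 3.01, is not shown. Cytosolic ribosomal protein genes (red) lie mostly at the bright end, 41 of 42 above 0, and mitochondrial ones (blue) lie in the middle of the range, 52 of 68 above 0, among the other genes in grey.

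Which ribosome stood higher relative to neurons alone depended on how the arrays were scaled. As deposited, the cytosolic median exceeded the mitochondrial one by 0.04, but the same difference was -0.095 under quantile normalization and -0.049 under a lowess correction. Quantile normalization gave medians of 0.082 for cytosolic and 0.18 for mitochondrial genes, with 30 of 42 and 57 of 68 higher. Lowess gave 0.12 and 0.17, with 32 and 57 higher. Scaling to the spiked control transcripts gave 0.094 and 0.056, with 35 and 40 higher, and moved the median of all genes to -0.12. Both medians thus stayed above 0 in all 6 scalings, and the order between them did not.

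Each median, over all genes of the group that passed, was also set against other genes of a signal class that held most of the group. The cytosolic median lay above that of the other genes at 4000 or more by 0.12 as deposited, 0.11 under quantile normalization and 0.17 under lowess. The mitochondrial median lay above that of the other genes between 200 and 2000 by 0.19 as deposited and by 0.16 under both of these corrections. These group medians include 6 cytosolic genes under 4000 and the 4 mitochondrial genes that passed only in co-culture, which lay under 200. They also include Mrpl17, which lay above 2000 at a mean intensity of 2482. Within the classes, as deposited, 36 cytosolic genes had a median of 0.21 and 63 mitochondrial genes one of 0.14. Gene by gene, 28 of 42 cytosolic genes were higher and 1 was lower in all 6 scalings, while 13 changed sign. Of the mitochondrial genes, 40 of 68 were higher in all 6, 10 were lower in all 6 and 18 changed sign. The 40 include all 4 genes that passed the filter only through the co-culture array.

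**Figure D2:**
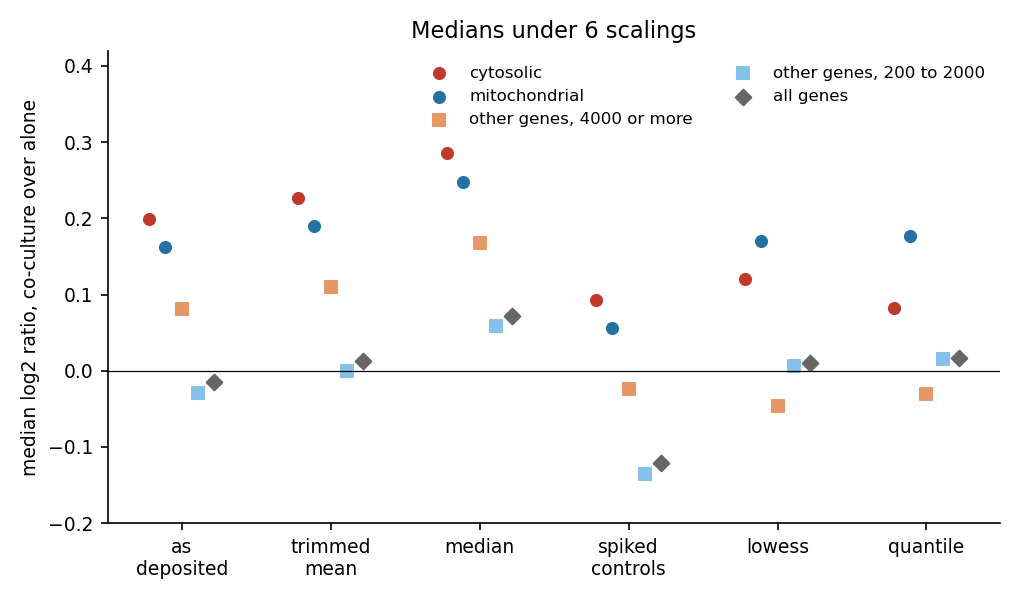
Median log2 ratios (y axis, co-culture over alone) are shown under 6 scalings (x axis) for cytosolic and mitochondrial ribosomal protein genes (circles), other genes of like signal (squares) and all genes (diamonds). The cytosolic median is above the mitochondrial one as deposited (0.20 and 0.16) and below it under lowess (0.12 and 0.17) and quantile normalization (0.082 and 0.18).

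In the cytosolic small subunit all 14 genes were higher as deposited, with a median of 0.22. Rps24, whose human gene is mutated in Diamond-Blackfan anaemia, had an intensity of 7627 in co-culture and 5906 alone, a log2 ratio of 0.37. Rps15, a protein of the subunit's head, had 5160 in co-culture and 4029 alone (0.36). Rps27l, a copy of Rps27 that is induced by p53, had a dimmer probe set, at 395 in co-culture and 309 alone, with the same ratio of 0.36. These were the 3 small subunit genes at a log2 ratio of 0.32 or more.

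Rpsa, which also serves as a laminin receptor precursor, had 7985 in co-culture and 6956 alone (0.20), and its other probe sets gave 0.20 and 0.28. Rps29, a zinc-binding protein, had 9780 in co-culture and 8525 alone (0.20). Rps4y2, a homologue of Rps4x, was dim at 341 in co-culture and 305 alone (0.16). All 3 were higher in co-culture as deposited, with ratios at or below the median of the subunit.

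The smallest ratios of the small subunit were those of Rps9 and Rps23, both of which help keep decoding accurate. Rps9 had 6461 in co-culture and 6119 alone (0.08). Rps23, whose probe set had the highest signal of all ribosomal genes, had 10152 in co-culture and 9929 alone (0.03). The sign of both changed with the scaling: each was above 0 in 3 of the 6 and below 0 under quantile normalization, lowess and the spiked controls.

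In the cytosolic large subunit 27 of 28 genes were higher, with a median of 0.20 and 4 at 0.32 or more. Rpl37a, a small zinc-binding protein, had 6709 in co-culture and 4864 alone, the highest cytosolic ratio at 0.46 or 1.38-fold. Rpl13a, which in human cells also joins a complex that silences inflammatory messages, had 6134 in co-culture and 4590 alone (0.42). Rpl12, at the base of the stalk that recruits elongation factors, had 6999 in co-culture and 5356 alone (0.39). Rpl35, near the exit of the peptide tunnel, had 6683 in co-culture and 5151 alone (0.38). All 4 were above 0 in every scaling, and Rpl37a ranged from 0.31 to 0.55 over them.

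Rplp0 anchors the acidic stalk proteins; it had 6635 in co-culture and 5365 alone (0.31), while Rplp1 and Rplp2 had no probe set with a single symbol. Rpl22, an RNA-binding protein of the ribosome surface, had 6592 in co-culture and 5404 alone (0.29). Rpl7a, the second brightest, had 9841 in co-culture and 8908 alone (0.14). Rpl23, which also binds the p53 regulator Mdm2, had 8610 in co-culture and 7707 alone (0.16). Rplp0 and Rpl22 thus lay above the cytosolic median of 0.20, and Rpl7a and Rpl23 below it.

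Rpl5 and Rpl11, which join the smallest ribosomal RNA and inhibit Mdm2 when ribosome assembly fails, were close to even. Rpl5 had 7321 in co-culture and 6762 alone (0.11), and Rpl11 had 6154 in co-culture and 5747 alone (0.10). Rpl3, near the peptidyl transferase centre, had 9431 in co-culture and 8789 alone (0.10). Rpl5 was at or below 0 in 2 of the 6 scalings, and Rpl3 and Rpl11 in 3.

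Rpl14 had 4839 in co-culture and 4713 alone (0.04), and its sign also changed with scaling. Rpl7l1, a relative of Rpl7 that acts in the nucleolus, had 1118 in co-culture and 1062 alone (0.07), with 0.12 at its other probe set. Rpl39, which lines the peptide tunnel, was the only cytosolic gene lower in co-culture among the 42 that passed, with 303 in co-culture and 362 alone (-0.26), and it was lower in all 6 scalings. It was also among the 6 cytosolic genes under 4000, of which the other 5 were higher, with a median of 0.18 over the 6.

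**Figure D3:**
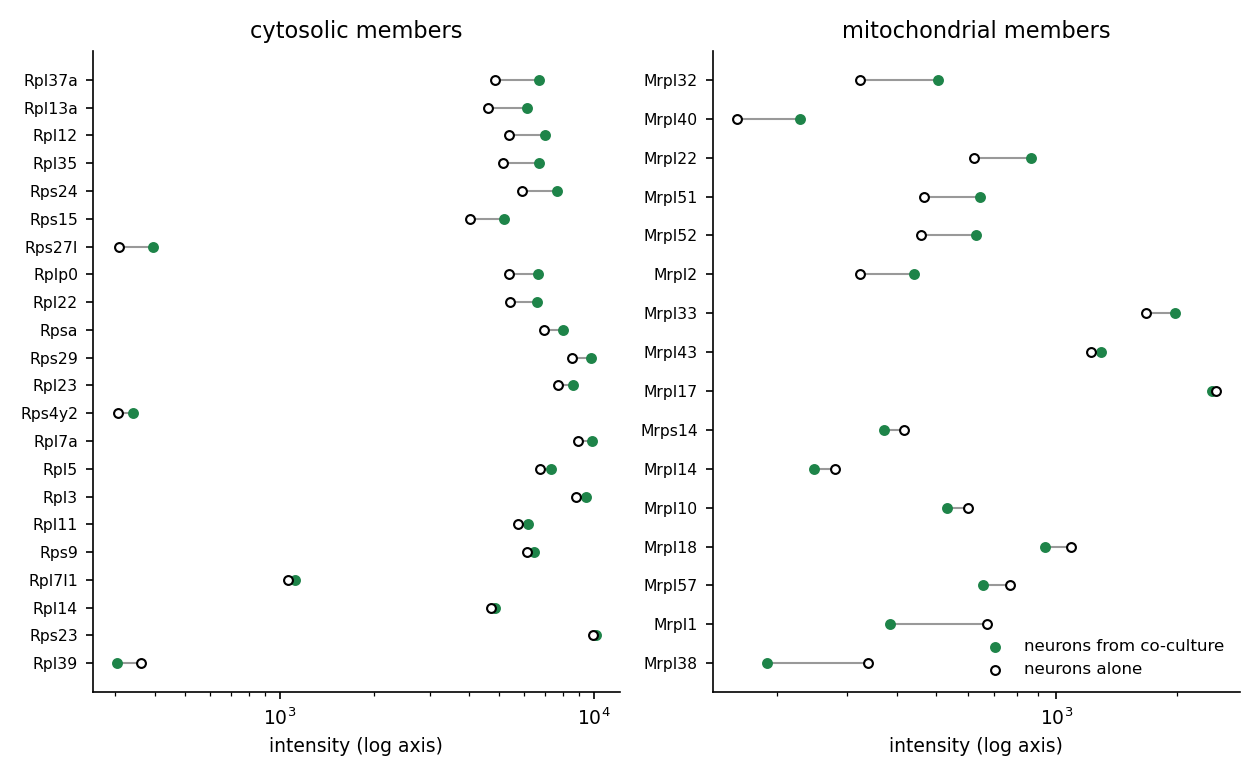
Intensity (log x axis) of the ribosomal protein genes that passed the filter and were picked by the naming rule given with the processing. Filled points are neurons from co-culture and open points neurons alone, with cytosolic genes left and mitochondrial genes right. Genes named in the text for other reasons, such as Mrps28, are not shown. Filled points lie to the right of open points for all cytosolic genes shown but Rpl39, and to either side among mitochondrial genes.

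Probe sets that could not be given to 1 gene showed the same tendency. The array held 34 probe sets with several symbols that included a cytosolic ribosomal protein. All 34 were higher in co-culture as deposited, with a median log2 ratio of 0.24, a range of 0.02 to 0.64 and 9 at 0.32 or more. Of all genes 47.3% were above 0 and 8.54% at 0.32 or more, and of the other genes at 4000 or more 72.8% and 1.94%. Taken with the cytosolic genes, 75 of 76 values were higher as deposited, with a median of 0.22. Other scalings were not applied to these probe sets, and under quantile normalization 30 of the 42 cytosolic genes were higher. Such probe sets may read closely related copies and pseudogenes, and no mitochondrial ribosomal protein had one. Among cytosolic genes the second probe set of Rpl7 was dim (217 in co-culture and 127 alone) and gave 0.77, where the bright one gave 6107 in co-culture and 5547 alone (0.14).

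In the mitochondrial large subunit 34 of 45 genes were higher and 11 lower, with a median of 0.15. Mrpl32, a zinc-binding protein that in yeast and mouse must be cut by the m-AAA protease before assembly, had 506 in co-culture and 324 alone. Its log2 ratio of 0.65, or 1.56-fold, was the highest of either ribosome among genes that passed, and lay between 0.54 and 0.73 over the 6 scalings. It was the only one of these at or past 1.5-fold higher; Mrps31, under the filter, was at 0.70.

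Mrpl22, a protein of the exit tunnel, had 866 in co-culture and 624 alone (0.47). Mrpl51 had 644 in co-culture and 466 alone (0.47), and its other 3 probe sets gave 0.51, 0.59 and 0.17. Mrpl52 had 631 in co-culture and 460 alone (0.45). Mrpl51 and Mrpl52 have no bacterial counterpart, and Mrpl51, with 4 probe sets all higher, was the mitochondrial gene with the most probe sets.

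Mrpl2, a core protein beside the peptidyl transferase centre, had 441 in co-culture and 322 alone (0.45). Mrpl40, which in human lies in the region lost in DiGeorge syndrome and passed the filter only through the co-culture array, had 228 in co-culture and 159 alone (0.52). Its second probe set went the other way, with 157 in co-culture and 195 alone (-0.32), so the direction of Mrpl40 was not settled by these arrays. All 6 of these highest genes were above 0 in every scaling at their brightest probe set.

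Mrpl38 and Mrpl1 stood apart at the other end. Mrpl38, a protein of the central protuberance, had 189 in co-culture and 339 alone, a log2 ratio of -0.84 or 1.79-fold lower. Mrpl1, the counterpart of the bacterial protein that forms the stalk where spent transfer RNA leaves, had 383 in co-culture and 671 alone (-0.81, 1.75-fold lower). Both were measured by 1 probe set, and both stayed at or below -0.72 in all 6 scalings. The next lowest mitochondrial gene was at -0.23, and among all ribosomal genes that passed the next was Rpl39, at -0.26.

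The third lowest mitochondrial gene was Mrpl57, with 657 in co-culture and 768 alone (-0.23), and -0.08 at its second probe set. Mrpl18 had 937 in co-culture and 1089 alone (-0.22). Mrpl10, which anchors the mitochondrial stalk protein Mrpl12, had 534 in co-culture and 603 alone (-0.18), whereas Mrpl12 itself had 1080 in co-culture and 943 alone (0.20). Mrpl14 had 247 in co-culture and 279 alone (-0.17). These 4 lower genes were below 0 in every scaling, at ratios within the spread of a single probe set at their signal.

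The brightest mitochondrial genes were close to even or somewhat higher. Mrpl17 had 2458 in co-culture and 2506 alone (-0.03), Mrpl33 had 1980 in co-culture and 1680 alone (0.24), and Mrpl43 had 1296 in co-culture and 1222 alone (0.08). The sign of Mrpl17 and Mrpl43 changed with the scaling and that of Mrpl33 did not. All 3 belong to the large subunit.

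In the mitochondrial small subunit 18 of 23 genes were higher and 5 lower, with a median of 0.18 and 3 at 0.32 or more. These 3 were Mrps28 (227 in co-culture and 168 alone, 0.44), Mrps34 (543 in co-culture and 417 alone, 0.38) and Mrps21 (597 in co-culture and 472 alone, 0.34), named after their values were seen. Mrps28 reached the array median only in co-culture. The lowest was Mrps14, with 371 in co-culture and 417 alone (-0.17). No small subunit gene was at -0.32 or less, and the 2 lowest mitochondrial genes were both of the large subunit.

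Proteins with and without a bacterial counterpart were near each other: the 39 mitochondrial genes with one had a median of 0.15 (28 higher, 11 lower), and the 29 without had 0.17 (24 higher, 5 lower). Among 13 genes of either ribosome with several probe sets, 9 had more than 1 that passed, and 7 of those had the same sign at each. The exceptions were Mrpl40 and Mrpl37, whose 2 passing probe sets gave 0.10 and -0.07. The filter bears on these signs. The second probe set of Rpl7 (217 in co-culture and 127 alone) passed only through the co-culture array, as did those of Mrpl51 at 0.59 and 0.17. Each probe set of Mrpl40 passed only through the array where it was higher.

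**Figure D4:**
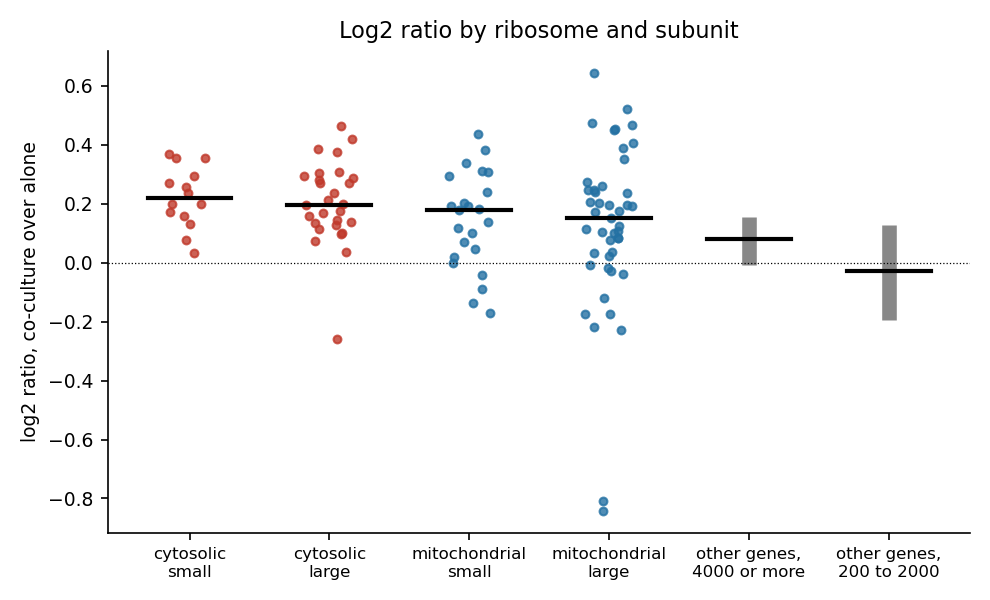
Each point is the log2 ratio of co-culture over alone (y axis) of 1 ribosomal protein gene, by ribosome and subunit (x axis), with a bar at the median; for the other genes of 4000 or more and of 200 to 2000 intensity, the grey box spans the quartiles. The medians are 0.22, 0.20, 0.18 and 0.15 for the 4 subunits, against 0.08 and -0.03 for the other genes, and Mrpl38 and Mrpl1 lie alone below -0.8.

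Proteins that descend from a common ancestor in both ribosomes could be set side by side in 14 families, of 27 listed. As deposited, the cytosolic ratio was the larger in 8 and the mitochondrial in 6. The median difference, cytosolic minus mitochondrial, was 0.08, with a range of -0.25 to 0.48. Under quantile normalization the mitochondrial ratio became the larger in uS3 (Rps3 0.081, Mrps24 0.13), uL4 (Rpl4 0.018, Mrpl4 0.049) and uL23 (Rpl23a 0.10, Mrpl23 0.20). The other families kept their order under it. The widest gap was in family uL10, with Rplp0 at 0.31 and Mrpl10 at -0.18. In uS14 Rps29 had 0.20 and Mrps14 -0.17, in uL18 Rpl5 had 0.11 and Mrpl18 -0.22, and in uL14 Rpl23 had 0.16 and Mrpl14 -0.17. In these 4 families, chosen for their gap, the cytosolic protein was higher and the mitochondrial one lower in co-culture as deposited. At the other end, in uL3 Rpl3 had 0.10 and Mrpl3 0.35, a difference of -0.25.

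The 2 groups also differ in the sequence at their start sites, which the choice by symbol did not use. RefSeq windows of 300 bases around the first listed start (250 before and 50 after, build GRCr8) were matched for 94 of the 113 genes, 39 cytosolic and 55 mitochondrial. A start at C followed by at least 4 pyrimidines was found in 28.2% of cytosolic and 3.64% of mitochondrial windows, and in 2.61% of the 8610 genes of the array with a window. A run of at least 8 pyrimidines between 10 bases before and 20 after the start was found in 53.8% of cytosolic, 7.27% of mitochondrial and 9.38% of array genes. Listed starts can differ by some bases from the main start used in a tissue, which bears on the first count more than on the second.

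The 30 bases around the start are shown for the cytosolic genes with the 6 highest ratios, and for Rplp0, Rps23 and Rpl39, which span the range of ratios; the first 10 bases lie before the start, 5′ to 3′, and capitals mark the longest run of pyrimidines.
Rpl37a, chr9:81748081-81748110, plus strand: cccgttgcgTCTCTTCCTCTTCgggcttgg
Rpl13a, chr1:104748894-104748923, minus strand: TCCTTTCCTaggcggctgccgaagatggcg
Rpl12, chr3:36661930-36661959, plus strand: aacatccgTCTTTTCggctttcggttcgga
Rpl35, chr3:43165902-43165931, minus strand: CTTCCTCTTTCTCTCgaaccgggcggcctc
Rps24, chr16:96507-96536, plus strand: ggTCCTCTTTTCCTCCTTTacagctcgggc
Rps15, chr7:10068096-10068125, minus strand: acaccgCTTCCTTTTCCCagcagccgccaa
Rplp0, chr12:46718371-46718400, minus strand: caccgcaCTTCTCTCgccaggcgtcctcat
Rps23, chr2:23814507-23814536, plus strand: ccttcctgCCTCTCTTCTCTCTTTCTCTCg
Rpl39, chrX:121195877-121195906, minus strand: taatcgcgttcttccggcctgTCCTTTCTC
Long pyrimidine runs stand at or near the start of genes with a high ratio (Rpl37a, 0.46), with a ratio near 0 (Rps23, 0.03) and with a ratio below 0 (Rpl39, -0.26).

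The same windows are shown for the mitochondrial genes with the 6 highest ratios and for Mrpl1, one of the 2 lowest, with the same use of capitals.
Mrpl32, chr17:55260641-55260670, plus strand: gcgggcttatgcatgCTCTCCgcccacgtc
Mrpl40, chr11:95637741-95637770, plus strand: gctgaggcctgacagaCCTTacccggtacc
Mrpl22, chr10:42845900-42845929, plus strand: cggcgtttgaactccgaggCTTCCgtaggg
Mrpl51, chr4:159677978-159678007, plus strand: gcgcccgcagagtccgcaaCTCCgagttca
Mrpl52, chr15:31852926-31852955, plus strand: agccacgcccacttccggTTTCTTTgctcc
Mrpl2, chr9:21834588-21834617, minus strand: taaaggtaaaagcgagTTCTgtacggagga
Mrpl1, chr14:13663502-13663531, minus strand: tcgtcagcacaaTCCggaacagtcaacatg
None of these 7 windows holds a run of 8 pyrimidines.

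Among cytosolic genes that passed and had a window, the 20 with a run of 8 or more had a median log2 ratio of 0.25 and the 18 without had 0.19. The ratios of these genes overlapped, at -0.26 to 0.46 with the run and 0.07 to 0.39 without. Short motifs were searched on both strands of the whole window. CCGGAAG, the core bound by ETS factors, was found in 23.1% of cytosolic, 30.9% of mitochondrial and 15.5% of array genes. AAGATGG, the core bound by YY1, was found in 20.5% of cytosolic, 23.6% of mitochondrial and 8.13% of array genes.

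TGCGCA, a part of the site of NRF1, which is known as a regulator of nuclear genes for mitochondria, was found in 17.9% of cytosolic, 25.5% of mitochondrial and 12.5% of array genes. The E-box CACGTG, bound by Myc, was found in 7.69% of cytosolic, 7.27% of mitochondrial and 8.94% of array genes, and TATAAA in 15.4%, 12.7% and 8.70%. GGGCGG, the GC box, was found in 61.5% of cytosolic, 49.1% of mitochondrial and 59.6% of array genes. Split by presence of each of these 6 motifs, median log2 ratios ran from 0.17 to 0.24 in cytosolic genes. In mitochondrial genes they ran from 0.10, with GGGCGG (n = 27), to 0.24, without it (n = 27). A match describes the letters of the window and not a bound site.

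**Figure D5:**
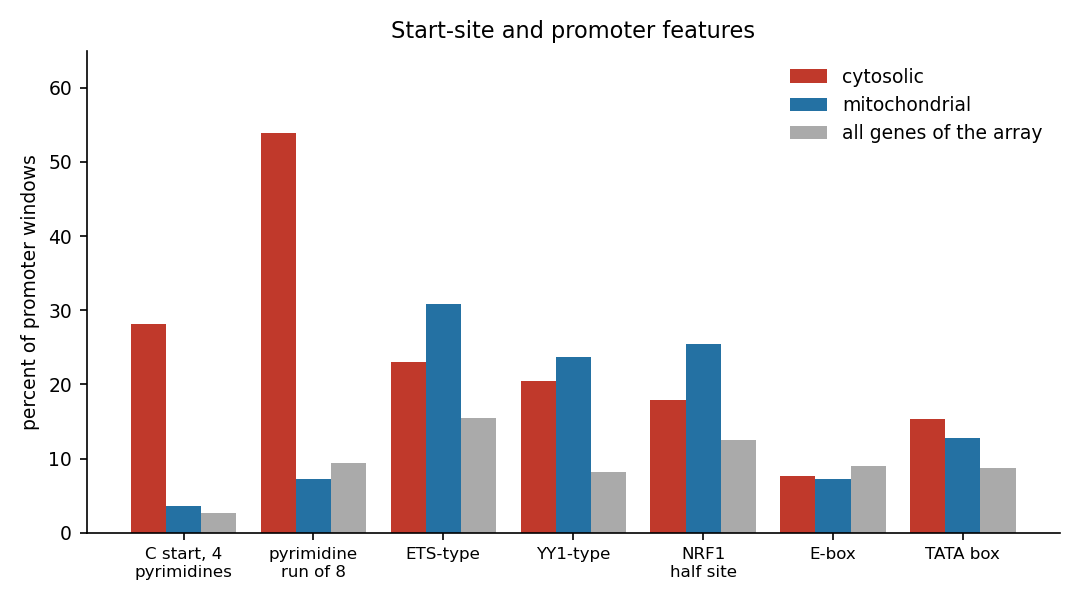
Percent of promoter windows (y axis, from 0) that hold each feature (x axis) among 39 cytosolic, 55 mitochondrial and 8610 array genes, with start-site features searched in the 30 bases around the start and motifs in the whole window. The pyrimidine run of 8 is found in 53.8% of cytosolic, 7.27% of mitochondrial and 9.38% of array genes.

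Genes that work with these proteins were read from lists outside the symbol rule. For the counts of all these lists, 47.3% of all genes that passed were higher, and 45% of the other genes between 200 and 2000. The mitochondrial ribosome has further proteins with other names, and of 7 that passed, 6 were higher in co-culture, with a median of 0.27 that was above 0 in all 6 scalings. Chchd1 had 1097 in co-culture and 680 alone, 1.61-fold higher. Dap3, the GTP-binding protein of the small subunit, had 681 in co-culture and 524 alone (0.38, named after its value was seen), and Mrps18a was the 1 lower, with 510 in co-culture and 632 alone (-0.31). Of the cytosolic partners Rack1, a scaffold on the small subunit, was measured, at 7019 in co-culture and 6307 alone (0.15, and below 0 under quantile normalization).

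The machinery that builds and serves the ribosomes showed smaller medians. Of 39 nucleolar and biogenesis genes 23 were higher and 16 lower, with a median of 0.06. At 0.32 or more lay 5 and at -0.32 or less lay 3, where 8.54% and 12.8% of all genes lay. Of the 5, Tcof1 (237 in co-culture and 167 alone) and Lsg1 (213 in co-culture and 161 alone) passed only through the co-culture array. Rrp1, which in yeast acts in large subunit assembly, had 576 in co-culture and 890 alone, 1.54-fold lower. Of 10 genes for mitochondrial translation factors and ribosomal RNA that passed, of 18 on the array, 3 were higher and 7 lower, with a median of -0.02. Among them Tufm, the elongation factor that brings transfer RNA, had 1161 in co-culture and 954 alone, and Oxa1l, which inserts new proteins into the inner membrane, had 865 in co-culture and 874 alone. The medians of both lists changed sign with the scaling.

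Of 10 genes for the control of TOP messages by mTOR, 6 were higher and 4 lower, with a median of 0.06 that was below 0 under the spiked controls. Rheb, the activator of mTOR, had 2451 in co-culture and 2520 alone, and Akt1, a kinase upstream of it, had 2111 in co-culture and 2315 alone. Larp1, which binds the TOP motif, had 1250 in co-culture and 1463 alone (-0.23) at the brightest of its 4 probe sets. The lowest ratio of the list was that of Mlst8, with 240 in co-culture and 307 alone (-0.35). The highest was that of Rptor, with 368 in co-culture and 320 alone (0.20). Larp1, Mlst8 and Rptor were named after their values were seen. Arrays of RNA level do not measure translation, the step that mTOR is known to control for these messages.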

How the data were processed

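The authors deposited 1 linear intensity per probe set and array, for 15923 probe sets. The design text names dChip 1.3 and the submitters' processing notes name MAS5; the sources do not settle which made the deposited intensity, or how it was scaled and background-corrected. Control probe sets (57) were left out, values under the pooled 20th percentile (39.6) were raised to it, and co-culture over alone was taken as a log2 ratio, without rescaling. Probe sets with exactly 1 symbol in the platform annotation numbered 12783. The 312 probe sets with several symbols and 2771 with none gave no gene value. With 1 array per condition no test was run, and the number of arrays limits the precision. Named genes were, per ribosome, the 6 highest and 6 lowest ratios, the 3 brightest, those past 1.5-fold, fixed paralogs, probe sets of opposite sign and the 4 widest family gaps; of other lists, up to 3 past 1.5-fold or the 2 brightest. Members and lists were chosen with earlier results of these data known. Alternatives were 5 scalings (quantile, median, 2% trimmed mean, lowess with span 0.3, spiked controls), other floors and filters, the mean over probe sets, probe sets unique to a gene, and updated symbols. The calculation was tested on simulated data. Python 3.11.15, pandas 2.3.3 and statsmodels 0.14.6 were used.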

Additional observations from a re-analysis of the deposited data

How the results depend on the processing

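The medians of both ribosomes kept their sign under all 12 alternatives, and their order did not: the difference, cytosolic minus mitochondrial, was 0.04 as deposited, -0.095 under quantile normalization and -0.049 under lowess. The cause was not tested. The cytosolic median (0.20 as deposited) was 0.082 under quantile normalization and 0.094 with spiked controls, and the mitochondrial median (0.16) was 0.056 with spiked controls. Cytosolic genes at a log2 ratio of 0.32 or more (7 as deposited) numbered 1 under quantile normalization, 19 under median scaling, 11 under the 2% trimmed mean, 2 under lowess and 1 with spiked controls; 1 was lower with spiked controls and 1 with no filter, against 0 as deposited. Mitochondrial genes that much higher (12) numbered 22 under median scaling and 7 with spiked controls, and those lower (2) numbered 4 with spiked controls. For single named genes, 462 of 464 values moved by less than 0.28, the SD of 1 probe set over all signal levels. That spread is wide enough for ratios near 0 to change sign. The other 2 were Rpl3l with no floor (-0.64, near background) and Mrpl40 as the mean over its probe sets (0.10). At 2000 or more, where the SD is 0.18, Rpsa (0.20 to 0.010) and Rps9 (0.08 to -0.11) moved by more under quantile normalization. Filters, floors and updated symbols left named genes that passed unchanged, and median, trimmed mean and spiked control scaling shift all genes alike. The count was therefore largely fixed by the choice of alternatives. Adding probe sets with several symbols, chosen after seeing the data, gave a cytosolic median of 0.22 as deposited. Leaving out the 4 mitochondrial genes that passed only in co-culture gave a mitochondrial median of 0.13, a difference of 0.067 and 10 genes higher. No paired analysis was possible because each condition has 1 array. Signal limits the dim mitochondrial genes more than the bright cytosolic ones, and no result here has a replicate check.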
